A study of Mus musculus with 12 samples.

Results

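The genes described here are 39 interferon and antigen presentation genes of the mouse, chosen by name because one arm of the study received a virus. They comprise 8 genes of interferon signalling and virus sensing, 15 antiviral effectors, 2 genes of ubiquitin-like modification, 4 interferon-inducible GTPases, 7 genes of class I antigen presentation and 3 chemokines. A probe annotated to that gene alone was found for 34 of the 39, out of 15081 genes named on the array. Psmb8 had 2 such probes, so the genes were read from 35 probes, and Oas2, Oasl1, Ifi44, Bst2 and Xaf1 had none.

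The RNA came from neurospheres, free-floating balls of dividing neural precursors, derived from cerebral cortex of the mouse at gestational day 12.5 and kept in serum-free medium with basic FGF (20 ng/ml), EGF (20 ng/ml) and LIF (0.15 ng/ml). There were 4 groups of 3 arrays: control cultures at 24 h and 108 h, given growth medium alone, and prominin cultures at 24 h and 108 h, which also received an adenovirus carrying CD133/R-prominin1, a membrane glycoprotein of cell protrusions. For the prominin cultures titled 24 h the protocol field states 108 h, and the titles were followed. No group with an empty virus is labelled, although the design text speaks of GFP, so virus and prominin cannot be told apart. All groups shared 1 reference RNA, from whole C57/Bl6 embryos of gestational day 12, on the Cy3 channel, with sample RNA on Cy5 and no dye swap. The strain of the neurosphere cells is not given in the sources used here, and whether the 3 replicates of a group came from different cultures is not stated, so p-values measure only the spread between these samples. Control and prominin below stand for cultures so labelled.

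Cells that sense viral nucleic acid activate interferon regulatory factors and secrete type I interferon. Type I interferon acts on receptors that signal through a complex holding Stat2 and Irf9, which binds the interferon-stimulated response element in the promoters of antiviral genes. Interferon gamma acts through gamma-activated sites, among others in front of Irf1 and of the immunoproteasome genes. The same signals raise class I antigen presentation, in which the proteasome cuts peptides, the Tap transporter moves them into the endoplasmic reticulum, and heavy chains bound to beta-2 microglobulin display them. In healthy brain tissue class I expression is known to be low.

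Both promoter elements could be read in the RefSeq promoter sequences of build GRCm38.p6, which cover 250 bases before to 50 bases after each gene's start and held 31 of the 39 genes. The interferon-stimulated response element was searched on both strands as GAAA, any 2 bases and GAAA and was present in 16 of these 31 genes (51.6%), against 3.99% of 27025 mouse genes with such a window. The gamma-activated site, searched as TTCNNNGAA, which reads the same on both strands, was present in 9 of the 31 (29%) against 9.55% of all genes. Irf2, Oas1a, Ifitm3, Bst2 and Igtp held both, and in Ifitm3 and Bst2 the matches overlapped. Neither was present in the windows of Irf3, Irf7, Irf9, Oasl1, Oasl2, Ifi44, Xaf1, Psmb9, Tap1, H2-K1 or H2-D1. A match describes the letters in the window and does not show that a factor binds. The following stretches show the elements (in capitals) of some of these genes, each written 5′ to 3′ on the gene's strand: Stat2 at chr10:128270248-128270325, plus strand, Isg15 at chr4:156200835-156200936, minus strand, where 3 matches overlap, Ifit1 at chr19:34640745-34640853, plus strand, with 2 matches, B2m at chr2:122147508-122147597, plus strand, and Cxcl10 at chr5:92349053-92349139, minus strand, for the interferon-stimulated response element, and Irf1 at chr11:53769884-53769972 and Psmb8 at chr17:34198058-34198146, both on the plus strand, for the gamma-activated site.
Stat2: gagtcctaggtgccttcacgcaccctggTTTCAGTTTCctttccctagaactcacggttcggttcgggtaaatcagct
Isg15: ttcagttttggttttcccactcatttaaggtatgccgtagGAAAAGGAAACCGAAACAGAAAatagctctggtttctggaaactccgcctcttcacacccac
Ifit1: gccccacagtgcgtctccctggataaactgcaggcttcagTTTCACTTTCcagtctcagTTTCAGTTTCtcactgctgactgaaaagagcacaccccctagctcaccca
B2m: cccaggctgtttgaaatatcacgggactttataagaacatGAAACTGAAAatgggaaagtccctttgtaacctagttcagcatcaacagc
Cxcl10: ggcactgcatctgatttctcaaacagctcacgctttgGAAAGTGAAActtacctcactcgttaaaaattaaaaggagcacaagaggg
Irf1: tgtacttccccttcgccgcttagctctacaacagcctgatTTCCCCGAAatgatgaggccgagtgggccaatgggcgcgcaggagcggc
Psmb8: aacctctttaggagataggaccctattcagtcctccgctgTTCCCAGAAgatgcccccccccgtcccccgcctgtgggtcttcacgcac
Counted from the gene's start, the match lay at −139 to −130 in B2m, at −90 to −82 in Irf1 and at −97 to −89 in Psmb8.

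Each deposited value is a log2 ratio, read here as neurosphere over embryo reference. The labels do not state that direction. Markers of neural stem cells and radial glia had a median of 3.28 ± 0.49 (SD, n = 12 arrays) and those of fibroblasts and meninges one of −5.01 ± 1.04, the order this reading gives. Exact zeros and a top value of 16.61 were read as codes without a ratio and treated as missing. From each array the median of 4532 probes with a value everywhere was then subtracted, so 0 below is the median probe, not the reference. The centring took out shifts of 0.68 between prominin and control at 24 h and of −1.08 at 108 h. Prom1, the mouse gene of the protein in the virus, was measured on 9 arrays. Its mean at 24 h was 1.19 in controls and −1.03 in prominin cultures, and at 108 h −3.06 and −0.48. The difference was −2.23 at 24 h and 2.58 at 108 h, with adjusted p of 0.998 and 0.717 by limma, so at 24 h the probe's direction ran against the labels. Whether it reads the RNA of the virus was not tested.

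The 24 h arrays held fewer and coarser values of the interferon and antigen presentation genes than the 108 h arrays. Of the 105 possible values per group (35 probes on 3 arrays), 73 were measured in controls and 81 in prominin cultures at 24 h, against 92 in each group at 108 h. Of the measured values at 24 h, 46.6% in controls and 45.7% in prominin cultures were exact ratios of 2 whole numbers of at most 10, taken here as a mark of dim spots, against 3.26% in each group at 108 h. For example, Stat2, Irf9, Ifit1 and Gbp2 shared the value 1.96 on the first prominin array at 24 h, deposited as the log2 of 3 over 2. There were 8 probes that never had such a value, those of Oas1a, Ifitm3, Usp18, Psmb8 (probe NM_010724), H2-K1, H2-D1, B2m and Ccl2. There were 10 probes measured on all 12 arrays and 25 on 7 to 11. The filter for testing, at least 2 values in every group, was passed by 18 probes of 17 genes. The 17 that did not pass were Irf7, Irf9, Zbp1, Ifit1, Ifit2, Mx2, Oas1a, Oasl2, Rsad2, Isg15, Gbp2, Gbp3, Irgm1, Tap1, Tap2, H2-K1 and Ccl5.

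**Figure D1:**
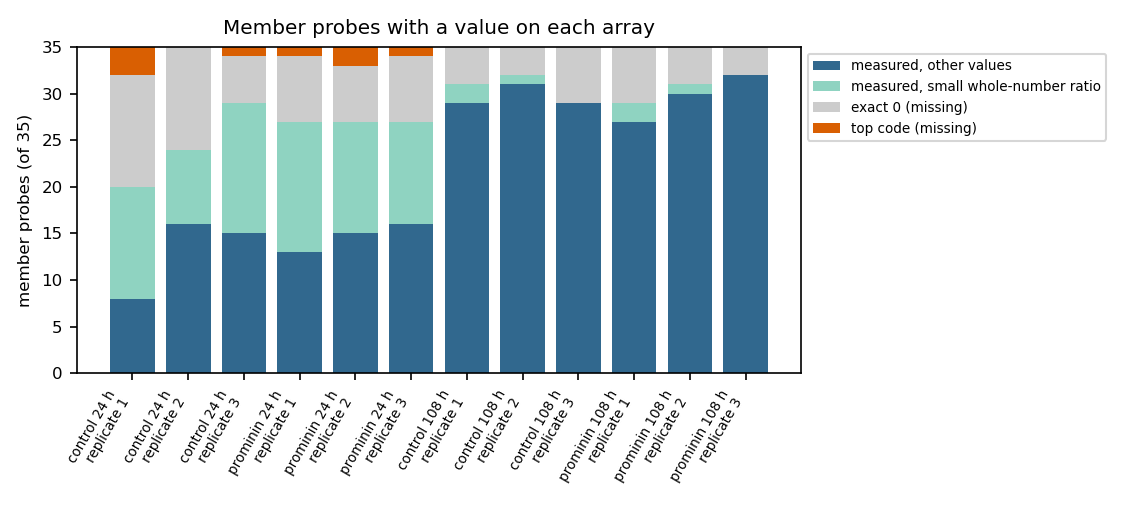
Number of the 35 probes of the interferon and antigen presentation genes (vertical axis) on each of the 12 arrays (horizontal axis), split into other measured values, measured small whole-number ratios, exact zeros and top-coded values. The 24 h arrays show 20 to 29 measured probes, many of them small whole-number ratios, and the 108 h arrays 29 to 32, nearly all other values.

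Relative to the median probe of an array, most of these genes had ratios above 0, while beta-2 microglobulin, Ifitm3 and H2-K1 were far below it on every array that measured them. The mean over arrays was above 0 for 28 of the 35 probes, and for 13 of the 18 tested ones, where 55.8% of all 9155 tested probes were above 0. As deposited, without centring, 11 of the 35 had a mean above 0, so for 17 probes the ratio lay above the median probe but below a deposited 0. With no named normalization step and no dye swap, a deposited 0 need not mean equality with the embryo. The per-array median of the 18 tested probes averaged 0.75 ± 0.57 and was above 0 on 12 of 12 arrays, from 0.04 to 1.501. That of all 9155 tested probes was itself above 0 on most arrays, from −0.05 to 0.24. On the first control array at 24 h it was 0.24 against 0.04 for the 18 probes, and on the other arrays the 18 probes had the higher median. The sign depends on where 0 is set. The average was −0.85 without centring and −0.83 after quantile normalization, and neither sets the median probe to 0. The deposited medians of the common probes ran from −2.59 to −0.84, so a dim spot with a ratio near 0 is centred to above 0. The 5 probes never above 0, of Oas1a, Ifitm3, Usp18, H2-K1 and B2m, were among the 8 without small whole-number ratios. Psmb8 (NM_010724), H2-D1 and Ccl2, also without them, had means above 0. The part of dim spots in the levels was not tested. These are ratios to whole embryo, not amounts of RNA, and in bulk RNA fewer cells of a type and less RNA per cell cannot be told apart.

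**Figure D2:**
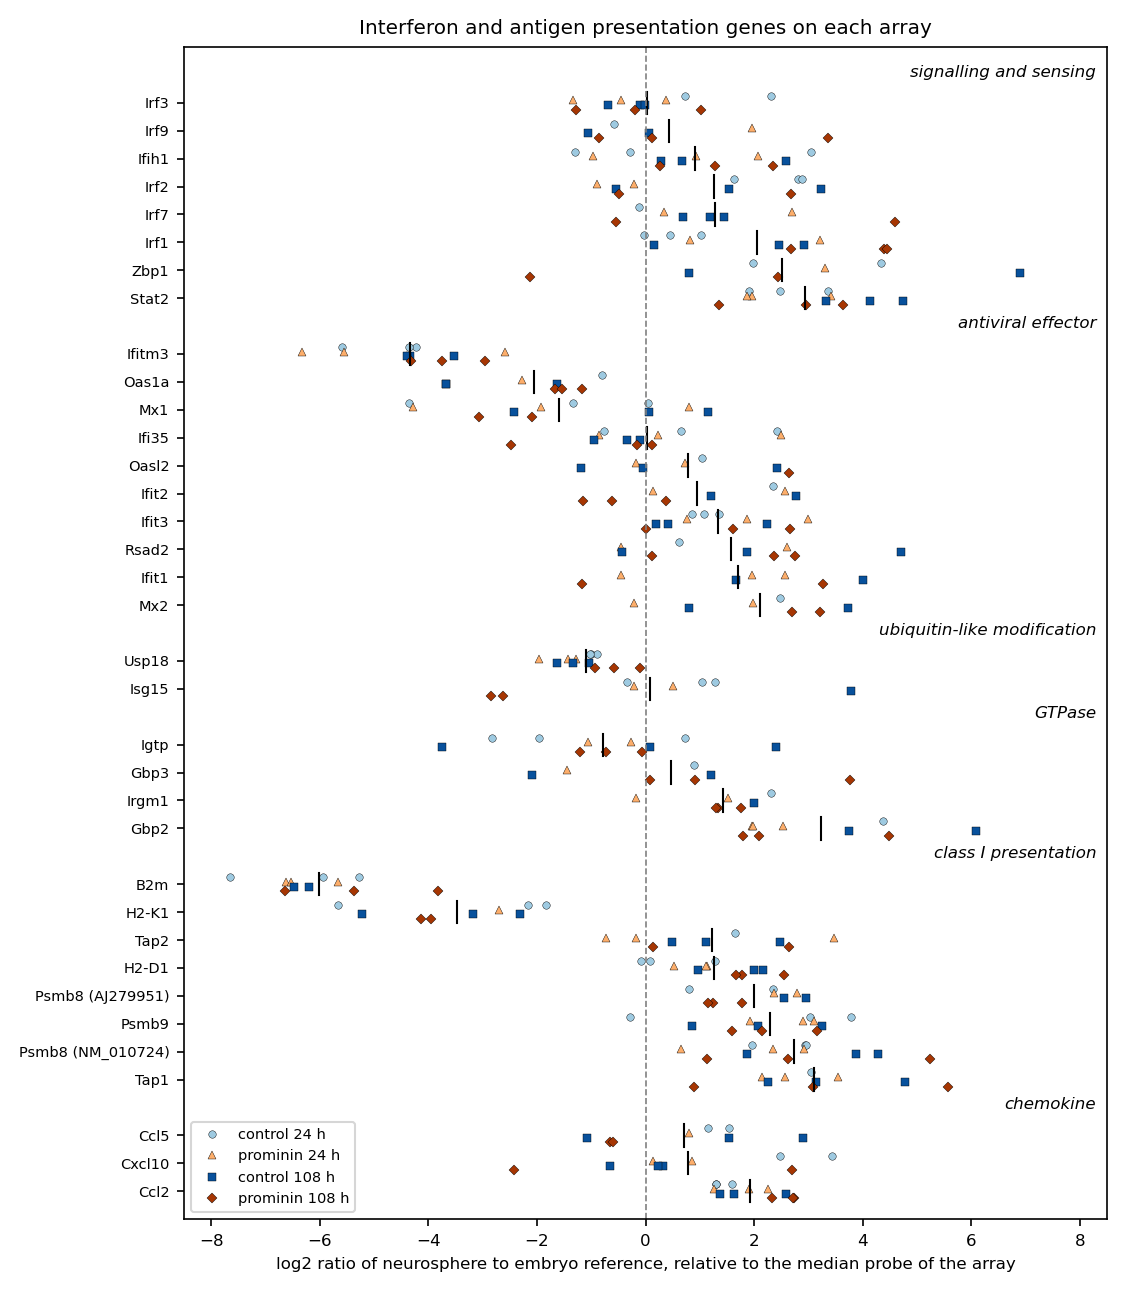
Centred log2 ratio to the embryo reference (horizontal axis) of each of the 35 probes (vertical axis, grouped by role), with 1 point per array, coloured by group, and a vertical line at the mean over arrays. B2m, Ifitm3 and H2-K1 lie left of the median probe, and Stat2, both Psmb8 probes, Tap1, Gbp2, Ifit3 and Ccl2 lie right of it on every array that measured them.

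Among the signalling and sensing genes all 8 means were above 0, from 0.03 for Irf3 to 2.93 for Stat2. All 8 had small whole-number ratios among their 24 h values. Stat2, a transcription factor of the type I interferon response, ranged from 1.35 to 4.73 over the arrays, with a median of 3.15, and its mean of 2.93 ± 1.03 (n = 12) lay above that of 95.7% of tested probes. Irf1, a target of interferon gamma that activates class I and proteasome genes, averaged 2.05 ± 1.64 (n = 11). Irf2, which can compete with Irf1 at the same sites, averaged 1.26 ± 1.64 (n = 10). Irf3, which is present before infection and starts interferon beta transcription, averaged 0.03 ± 1.06 (n = 11), and Irf7, which amplifies that response, 1.28 ± 1.67 (n = 8). The sensor of long double-stranded RNA Ifih1 averaged 0.91 ± 1.40 (n = 12). The nucleic acid sensor Zbp1 had a wide spread, 2.52 ± 2.83 (n = 7), from −2.12 to 6.89.

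The antiviral effectors were divided, and so were their marks of dim spots. All 3 values at 24 h of Ifit1, Ifit2, Mx2, Oasl2 and Rsad2 were small whole-number ratios. Of 6 values at 24 h, Mx1 had 3 such ratios and Ifit3 and Ifi35 1 each, while Ifitm3 and Oas1a had none. Ifitm3, a membrane protein that blocks the entry of viruses, was measured on all arrays and ranged from −6.33 to −2.59, with a median of −4.34. Its mean of −4.33 ± 1.09 was the lowest of the probes measured on all 12 arrays, and 2.09% of tested probes were lower. Oas1a, whose product makes the messenger that activates RNase L, averaged −2.05 ± 1.09 (n = 8), and the dynamin-like GTPase Mx1 −1.59 ± 1.92 (n = 11). The Ifit family members Ifit1, Ifit2 and Ifit3 averaged 1.70 ± 1.89 (n = 7), 0.96 ± 1.504 (n = 8) and 1.33 ± 0.96 (n = 12). Rsad2, which encodes viperin, averaged 1.57 ± 1.74 (n = 9). Of the Ifit genes and Rsad2, only Ifit3 was measured on all 12 arrays, and it was above 0 on each. Ifi35 was near the median probe at 0.02 ± 1.39 (n = 12), and Mx2 (2.10 ± 1.38, n = 7) and Oasl2 (0.77 ± 1.40, n = 7) were measured on too few arrays to test.

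Usp18, the protease that removes Isg15 from proteins and damps receptor signalling, was below the median probe on all 12 arrays, at −1.11 ± 0.48. Its deposited values were nearly constant, −2.71 ± 0.22, between −3.06 and −2.35, a smaller spread than after centring. Isg15, the ubiquitin-like modifier itself, averaged 0.07 ± 2.15 (n = 8), and all 5 of its values at 24 h were small whole-number ratios. Of the GTPases, which act on the membranes around intracellular pathogens, Gbp2 averaged 3.23 ± 1.51 (n = 9), Irgm1 1.44 ± 0.80 (n = 7), Gbp3 0.47 ± 1.92 (n = 7) and Igtp −0.79 ± 1.69 (n = 11). At 24 h, small whole-number ratios made up 3 of 4 values of Gbp2, 2 of 3 of Irgm1, 2 of 2 of Gbp3 and 1 of 5 of Igtp.

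The genes of class I presentation were at both ends of the scale. B2m, the light chain that all class I molecules need, ranged from −7.65 to −3.83 on the 11 arrays that measured it, with a mean of −6.02 ± 0.99. Of the 9155 tested probes 34 (0.371%) had a lower mean. H2-K1, a class I heavy chain, averaged −3.47 ± 1.37 (n = 9) and was also below 0 on each of them. H2-D1, another heavy chain, was above 0 on 11 of 12 arrays, at 1.26 ± 0.82. The immunoproteasome subunits were among the highest tested probes, Psmb8 at 2.73 ± 1.30 (probe NM_010724, n = 12) and 2.00 ± 0.78 (probe AJ279951, n = 9) and Psmb9 at 2.30 ± 1.16 (n = 12). The peptide transporter subunits Tap1 and Tap2 averaged 3.10 ± 1.33 (n = 10) and 1.23 ± 1.43 (n = 9). At 24 h, small whole-number ratios made up 4 of 4 values of Tap1, 3 of 6 of Psmb9 and 1 of 4 of Tap2 and of Psmb8 (AJ279951). B2m, H2-K1, H2-D1 and Psmb8 (NM_010724) had none. As deposited, the means were −7.64 for B2m, −5.17 for H2-K1, −0.34 for H2-D1 and 1.13 for Psmb8 (probe NM_010724), which is the same order. Class I heavy chains resemble each other in sequence, and a further probe lists H2-D1 with other genes and was not used. Which heavy chains a probe reads was not tested.

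Levels of other cell types stand beside these values. Of the 12 listed markers of microglia and other leukocytes, cells rich in class I and B2m, 11 had a probe, and their per-array median was −0.45 ± 1.07. Fcer1g (−4.27 ± 0.84, n = 10), Tyrobp (−3.80 ± 1.11, n = 9), Laptm5 (−4.01 ± 1.72, n = 11) and C1qa (−3.14 ± 1.41, n = 8) were the 4 low ones of 13 probes. Another 4, of Cd68, Aif1, Itgam and Trem2 (probe NM_031253), had means from −0.74 to −0.0037. The remaining 5, of C1qb, Cx3cr1, Ptprc and Trem2 on the other two probes, had means from 0.73 to 1.66. Endothelial markers had a median of −2.44 ± 1.17 and fibroblast markers one of −5.01 ± 1.04. The part of these cells of the embryo in the low ratios was not tested.

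The 3 chemokine genes were above the median probe on average. Ccl2, which attracts monocytes, was above 0 on all 12 arrays, from 1.25 to 2.73, at 1.92 ± 0.58. Cxcl10, an interferon target that attracts T cells, averaged 0.79 ± 1.83 (n = 9), and Ccl5 0.70 ± 1.37 (n = 8). At 24 h, 3 of 4 values of Cxcl10 and 3 of 3 of Ccl5 were small whole-number ratios, and none of Ccl2 were.

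The first comparison asks whether cultures that received the prominin virus differed from controls at 24 h. None of the tested interferon or antigen presentation genes passed the threshold: 0 of 18 probes had an adjusted p under 0.05 by limma, as had 0% of all 9155 probes. Means were higher in prominin cultures for 10 probes and lower for 8, with a median difference of 0.05, against −0.10 for all tested probes. Leaving out 1 array moved that median to between −0.39 (without prominin replicate 1) and 0.42 (without prominin replicate 3). At an unadjusted p under 0.05 there were 0 higher, where 1.92% of all probes qualified, and 2 lower, Irf2 and Irf3, where 2.65% did. Groups did not overlap for 1 higher and 4 lower probes, against 6.49% and 9.99% of all probes.

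Irf2 was 1.63, 2.80 and 2.88 in controls at 24 h and −0.21 and −0.89 in the 2 prominin cultures that measured it. The groups did not overlap, and the difference was −2.98 (SE 1.23, 95% interval −5.74 to −0.22) with an unadjusted p of 0.0369 and an adjusted p of 0.998 by limma. Of the 5 values, 3 were small whole-number ratios, and with both codes kept as values the sign turned, to 3.79. Irf3 was 2.31 and 0.73 in controls and 0.38, −0.45 and −1.33 in prominin cultures. Here too the prominin values lay lower without overlap, by −1.99 (SE 0.86, −3.89 to −0.08, unadjusted p of 0.0422 and adjusted p of 0.998 by limma), and 4 of the 5 values were small whole-number ratios. Cxcl10 was 3.44 and 2.47 in controls and 0.14 and 0.85 in prominin cultures, a difference of −2.46 (SE 1.47, −5.81 to 0.89), whose sign turned to 4.35 with both codes kept. Of these 4 values, 3 were small whole-number ratios, both control values among them.

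The 6 tested probes without small whole-number values differed at 24 h by −0.65 to 0.50. Usp18 was −1.01, −0.90 and −1.03 in controls and −1.28, −1.44 and −1.97 in prominin cultures. Its prominin values were all lower, by −0.58 (SE 0.51, −1.69 to 0.53), but without centring the difference was 0.10. Ccl2 was 1.60, 1.30 and 1.29 in controls and 2.26, 1.91 and 1.25 in prominin cultures, which overlapped, with a difference of 0.41 (SE 0.55, −0.78 to 1.61). H2-D1 was −0.09, 1.28 and 0.08 in controls and 1.14, 1.11 and 0.53 in prominin cultures, a difference of 0.50 (SE 0.60, −0.83 to 1.82) that was within the spread. B2m was −5.27, −5.94 and −7.65 in controls and −5.67, −6.62 and −6.52 in prominin cultures. Its groups overlapped and their means differed by 0.02 (SE 0.85, −1.85 to 1.89). Ifit3 was 0.78 higher (SE 0.85) and Irf1 1.53 higher (SE 1.04), each with overlapping groups. Without prominin replicate 2 these were 0.23 and 0.34, and without prominin replicate 3 they were 1.34 and 2.73. The 2 Psmb8 probes had opposite signs at 24 h, 1.01 (SE 0.78) for AJ279951 and −0.65 (SE 1.05) for NM_010724. The first was 0.24 without control replicate 2 and 6.58 with both codes kept.

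At 108 h, where such ratios were rare, again 0 of 18 probes passed the threshold by limma, as did 0% of all probes. Prominin means were higher for 11 probes and lower for 7, with a median difference of 0.15 against 0.00 for all probes. That median ran from −0.04 without prominin replicate 1 to 0.65 without prominin replicate 3. None of the 18 had an unadjusted p under 0.05, where 3.29% of all probes qualified as higher and 3.53% as lower. Without overlap there were 1 higher and 1 lower probe, against 7.85% and 8% of all probes.

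Irf1 had the smallest p of these genes at 108 h. It was 2.47, 2.92 and 0.16 in controls and 4.39, 2.69 and 4.45 in prominin cultures. The lowest prominin value lay within the control range, and the difference was 1.99 (SE 0.93, −0.06 to 4.05) with an unadjusted p of 0.0562 and an adjusted p of 0.725 by limma. Stat2 was 4.14, 4.73 and 3.33 in controls and 3.64, 1.35 and 2.96 in prominin cultures. Its groups overlapped, with a difference of −1.42 (SE 0.76, −3.09 to 0.25, adjusted p of 0.738 by limma).

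Usp18 was −1.05, −1.64 and −1.33 in controls at 108 h and −0.11, −0.93 and −0.59 in prominin cultures. It was the one probe whose prominin values all lay higher, by 0.80 (SE 0.51, −0.31 to 1.90, adjusted p of 0.784 by limma), and without centring the difference was −0.28. Psmb8 on probe AJ279951 was 2.96 and 2.55 in controls and 1.25, 1.16 and 1.78 in prominin cultures, the one probe lower without overlap, by −1.36 (SE 0.72, −3.00 to 0.28). The other Psmb8 probe gave 3.87, 4.27 and 1.86 in controls and 1.14, 2.63 and 5.24 in prominin cultures. These overlapped widely, with a difference of −0.33 (SE 1.05).

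Ccl2 was 1.63, 2.59 and 1.38 in controls at 108 h and 2.73, 2.33 and 2.71 in prominin cultures, a difference of 0.72 (SE 0.55, −0.47 to 1.92) with overlapping groups. B2m was −6.20 and −6.48 in the 2 controls that measured it and −3.83, −5.38 and −6.63 in prominin cultures. The groups overlapped, at a difference of 1.06 (SE 0.94, −1.03 to 3.16) whose sign turned to −0.10 without centring and to −1.58 with zeros kept. Mx1 was 1.16, −2.42 and 0.05 in controls and −2.09 and −3.08 in prominin cultures, a difference of −2.18 (SE 1.65, −5.83 to 1.48). H2-D1 was 0.29 higher (SE 0.60) and Ifitm3 0.41 higher (SE 0.90), both within the spread. The 95% intervals show the precision that 3 arrays a group gave: the median SE of the 18 differences was 0.94 at 108 h and 0.96 at 24 h.

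**Figure D3:**
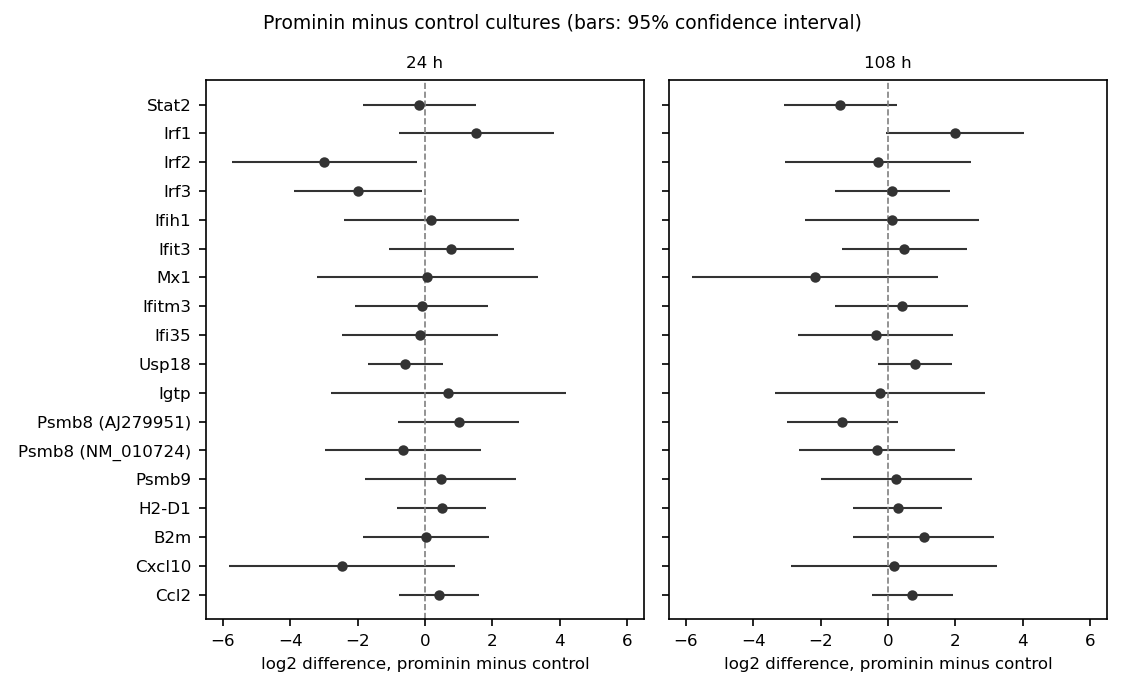
Difference in log2 ratio between prominin and control cultures (horizontal axis) for the 18 tested probes (vertical axis) at 24 h (left) and 108 h (right), with 95% confidence intervals from limma as bars. At 24 h the intervals of Irf2 and Irf3 leave out 0 before adjustment, and at 108 h all 18 include it.

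A test of whether the prominin difference changed between the times gave 0 of 18 probes under the threshold by limma, with 0% of all probes. None of the 18 had an unadjusted p under 0.05, where 3.4% of all probes qualified as higher and 2.56% as lower. The change from 24 h to 108 h was −2.37 (SE 1.06, −4.80 to 0.06, adjusted p of 0.817) for Psmb8 on probe AJ279951, and −7.83 with both codes kept. It was 1.38 (SE 0.71) for Usp18, 2.11 (SE 1.15) for Irf3 and 2.67 (SE 1.74) for Irf2.

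**Figure D4:**
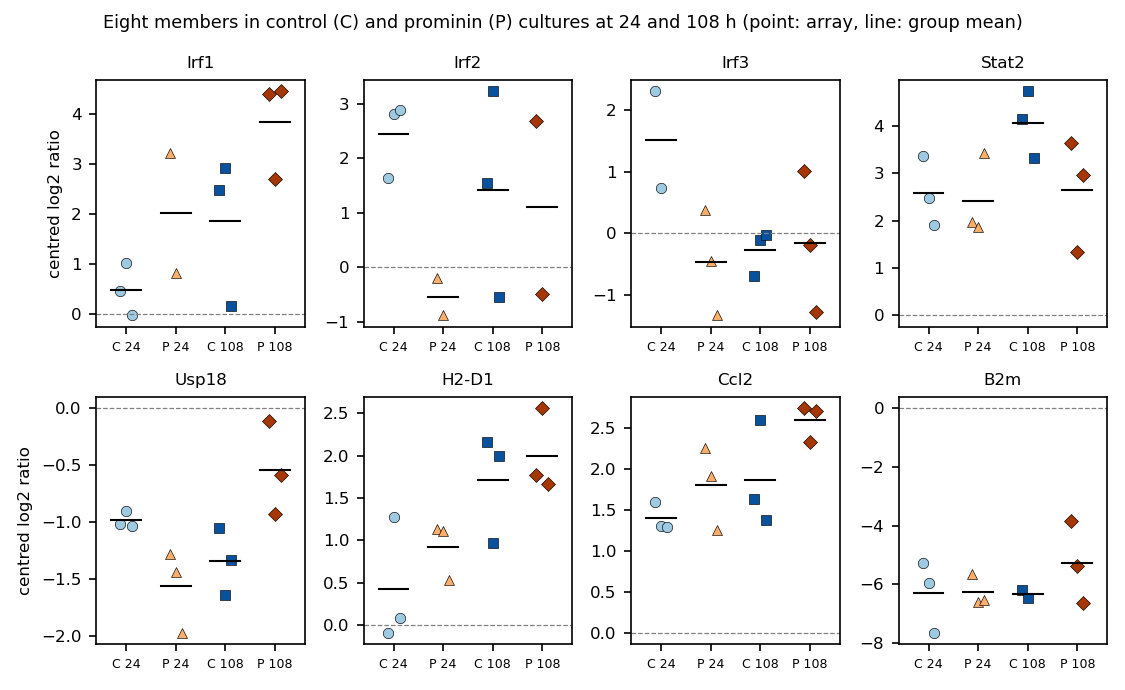
Centred log2 ratio (vertical axis, own scale in each panel) of 8 genes in control (C) and prominin (P) cultures at 24 h and 108 h, with 1 point per array and a horizontal line at the group mean. The group mean of Irf1 is highest in prominin cultures at 108 h, at 3.84, Irf2 and Irf3 lie lower in prominin than in control cultures at 24 h, and B2m is below −3 on every array that measured it.

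Prominin against control cultures was also averaged over both times, which share no arrays. Of the 18 probes 0 passed by limma (0% of all probes), and 1 had an unadjusted p under 0.05, Irf1, where 1.84% of all probes qualified as higher and 3.22% as lower. Irf1 differed by 1.76 (SE 0.70, 0.22 to 3.30, unadjusted p of 0.0289 and adjusted p of 0.959). The average difference of Irf1 kept its sign under the 22 alternatives that gave a value, from 1.17 to 2.36, with adjusted p from 0.844 to 0.990 by limma. That was not particular to Irf1: the average differences of Ccl2, Ifit3, H2-D1, Irf3, Stat2 and Mx1 also kept their sign. Those of B2m, Irf2 and Cxcl10 turned under some alternative. Of the 5 Irf1 values at 24 h, 3 were small whole-number ratios. Irf2 differed by −1.65 (SE 0.87), Irf3 by −0.93 (SE 0.58), Stat2 by −0.79 (SE 0.54) and Ccl2 by 0.57 (SE 0.39), and their intervals all included 0. Prominin means were higher at both times for 7 of 18 probes (Irf1, Ifih1, Ifit3, Psmb9, H2-D1, B2m and Ccl2), as they were for 21.8% of all probes. They were lower at both for 4, Stat2, Irf2, Ifi35 and Psmb8 on probe NM_010724 (25.7% of all probes), and of opposite sign for 7 (52.6%).

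Leukocyte markers are given beside these comparisons. On 5 tested probes their median prominin difference was 0.39 at 24 h, 0.43 at 108 h and 1.00 over both times, and that of the change between the times was 1.35. The per-array median of all their probes ran from −1.07 to 1.30 in controls and from −1.51 to −0.13 in prominin cultures at 24 h. At 108 h it ran from −1.63 to −0.02 and from −1.27 to 1.62. These ranges overlapped at both times, and the part of leukocytes in the values of Irf1, Ccl2 or class I genes was not tested.

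The comparison of 108 h with 24 h asks how these genes differ with culture time, on the same arrays as above. In controls 0 of 18 probes passed by limma, with 0% of all probes, and 0 had an unadjusted p under 0.05 (2.79% of all probes higher, 4.15% lower). There were 10 probes with a higher and 8 with a lower mean at 108 h, and the median difference was 0.56 against −0.06 for all probes, and 0.19 without replicate 2 at 108 h. H2-D1 had a control mean of 0.42 ± 0.75 at 24 h and 1.71 ± 0.64 at 108 h, and the ranges overlapped, at a difference of 1.29 (SE 0.60, −0.04 to 2.61, adjusted p of 0.724). Stat2 differed by 1.49 (SE 0.76) and Irf1 by 1.37 (SE 0.93). Cxcl10 was 3.44 and 2.47 in controls at 24 h, both small whole-number ratios, and 0.32, 0.23 and −0.65 at 108 h, none of them such a ratio. Its values lay lower without overlap, by −2.98 (SE 1.34, −6.04 to 0.08, adjusted p of 0.724). Irf3 also lay lower without overlap, by −1.80 (SE 0.86). Non-overlapping groups numbered 1 higher (8.4% of all probes) and 3 lower (10.2%).

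In prominin cultures 2 of 9155 probes (0.0218%) passed with time by limma and 0 of the 18. The count of 2 fell to 0 without replicate 2 at 24 h or replicate 1 or 3 at 108 h, to 1 without replicate 3 at 24 h or replicate 2 at 108 h, and to 0 when only these 6 arrays were fitted. None of the 18 had an unadjusted p under 0.05, where 4.31% of all probes qualified as higher and 4.5% as lower. Means were higher at 108 h for 11 probes and lower for 7, with a median of 0.47 against 0.01 for all probes. Without prominin replicate 1 at 108 h that median was −0.08. H2-D1 lay above its 24 h range, with means of 0.92 ± 0.34 and 2.00 ± 0.49 and a difference of 1.07 (SE 0.60, −0.25 to 2.40, adjusted p of 0.654). Usp18 was 1.02 higher (SE 0.51, −0.09 to 2.13, adjusted p of 0.615) and Ccl2 0.78 higher (SE 0.55), both also without overlap, and without centring the differences of H2-D1, Usp18 and Ccl2 were 0.01, −0.05 and −0.28. Irf1 was 1.83 higher (SE 1.04), with overlap, and 0.64 higher without replicate 3 at 24 h. In the same comparison the median differences of the marker lists were 0.97 for leukocytes, 1.58 for fibroblasts and meninges and −1.36 for endothelium, and their part in these values was not tested. Psmb8 on probe AJ279951 was the one probe lower without overlap, by −1.18 (SE 0.72), and by −6.74 with both codes kept. In all there were 3 higher and 1 lower, where 10.1% and 9.5% of all probes did not overlap. Since every 24 h array held more dim values than every 108 h array, culture time and this difference between the arrays cannot be told apart.

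**Figure D5:**
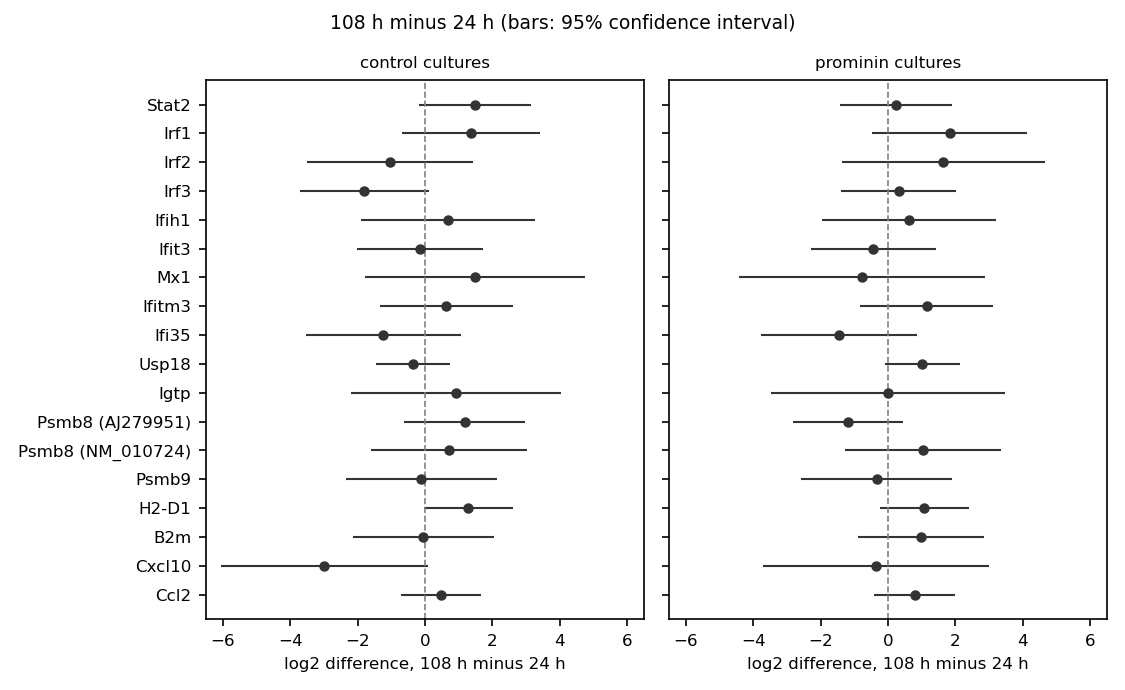
Difference in log2 ratio between 108 h and 24 h (horizontal axis) for the 18 tested probes (vertical axis) in control cultures (left) and prominin cultures (right), with 95% confidence intervals from limma as bars. All 36 intervals include 0, and H2-D1 lies near 1 in both panels, although in prominin cultures its difference was 0.01 without centring.

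The 17 untested genes are given as values only. At 24 h 16 of them had a value in both groups, with differences from −2.33 to 2.55, and 11 were lower in prominin cultures. Ifit1 was the exception, with no value in controls at 24 h. At 108 h all 17 had a value in both groups, with differences from −6.52 to 2.24, and 10 were lower. Isg15 was 3.79 in the 1 control at 108 h that measured it and −2.85 and −2.63 in 2 prominin cultures. Ifit2 was 1.21 and 2.77 in controls at 108 h and −1.16, −0.61 and 0.38 in prominin cultures, which did not overlap. Ifit1 ran the same way on average, at 4.01 and 1.67 in controls and 3.27 and −1.17 in prominin cultures, but overlapped. Oas1a was −3.68, −1.62 and −3.67 in controls and −1.17, −1.66 and −1.53 in prominin cultures at 108 h, a higher mean with overlap. Gbp2 had means of 4.92 and 2.79, and Tap1 of 3.39 and 3.19, in controls and prominin cultures at 108 h.

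A further list of 93 symbols of the interferon and presentation pathways, older names of some genes included, had probes for 71 genes, of which 33 probes were tested. In each of the 6 comparisons 0 of these 33 passed by limma. Prominin means were higher for 14 and lower for 19 at 24 h, and for 20 and 13 at 108 h, with medians of −0.08 and 0.15. The smallest p at 24 h belonged to H2-Q10, a secreted class I heavy chain, at −2.27 (SE 0.60, unadjusted p of 0.00321, adjusted p of 0.998 by limma). The RNA-activated kinase gene Eif2ak2 on probe AK009862, at −2.12 (SE 0.89), and the GTPase gene Ifi47, at −2.31 (SE 1.18), followed. H2-Q10 ran the other way at 108 h, at 1.22. Its change between the times was 3.49 (SE 0.89, unadjusted p of 0.00273, adjusted p of 0.805 by limma). Its mean was −3.19 in controls and −5.46 in prominin cultures at 24 h, and −5.27 and −4.05 at 108 h. Another Eif2ak2 probe, NM_011163, was not tested, and its mean level was 1.35 ± 1.25 (n = 8) against −1.64 ± 1.51 (n = 12) for AK009862. At 108 h the smallest p belonged to the chaperone gene Canx, at −2.30 (SE 0.88). The Stat-binding protein gene Nmi, at 5.36 (SE 1.96), and the NF-kappaB subunit gene Rela, at 1.36 (SE 0.68), followed. The adjusted p of Canx, Nmi and Rela by limma was 0.717, 0.717 and 0.732. Unadjusted p under 0.05 was reached at 24 h by 0 higher and 2 lower probes of the 33, where 1.92% and 2.65% of all probes qualified, and at 108 h by 1 and 1 (3.29% and 3.53%). With time it was reached by 3 higher and 3 lower in controls (2.79% and 4.15%) and by 3 and 1 in prominin cultures (4.31% and 4.5%). For the change it was reached by 1 and 1 (3.4% and 2.56%), and over both times by 0 and 1 (1.84% and 3.22%).

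In level, several genes of the further list lay far from the median probe. Ifitm2 (−4.76 ± 1.24) and Ifitm1 (−3.87 ± 1.16), relatives of Ifitm3, and Ube2l6, the conjugating enzyme for Isg15 (−4.33 ± 1.14), were all measured on 12 arrays. The interferon receptor genes Ifnar1 (−3.46 ± 0.88, n = 6), Ifnar2 (−3.16 ± 2.09, n = 8) and Ifngr1 (−2.19 ± 2.20, n = 9) were measured on fewer. High ratios were found for Stat3 (3.64 ± 1.15, n = 11) and its target Socs3 (2.83 ± 1.04, n = 12), which act downstream of LIF, for the peptide trimming enzyme gene Erap1 (3.08 ± 1.36, n = 11) and for the class I gene H2-M3 (2.56 ± 0.76, n = 12).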

How the data were processed

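The authors deposited 1 value per probe and array, a log2 ratio of the 2 channels, per the labels of the samples and the range of the values. The sources used here name no scanner, image software or normalization step. Total RNA was extracted with Trizol and RNeasy and labelled by dendrimer, per the labels' protocols. The table held 21738 probes on 12 arrays, with 10404 to 14465 measured per 24 h array and 15944 to 16598 per 108 h array once zeros and the top code were set to missing. Deposited array medians of the common probes ran from −2.59 to −0.84, and these were subtracted. The number of arrays limits the precision: the median residual SD was 1.19.

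Groups came from the titles. The 9155 probes that had 2 or more values in each group entered limma 3.58.1 in R 4.3.3, with 1 mean per group, moderated variance, 6 comparisons and Benjamini-Hochberg adjustment over all tested probes, at a threshold of 0.05. No p was computed over the gene list. Scripts were tested on simulated data.

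Gene names came from the platform annotation, using probes with 1 symbol. The genes and lists were chosen with earlier results of these data known. Every listed gene with a probe could be named, with full statistics for up to 5 in each direction by smallest p per comparison, and for up to 3 of the further list. The 3 highest and 3 lowest of the probes measured on all arrays were Stat2, Psmb8 (NM_010724), Psmb9 and Ifitm3, Usp18, Ifi35. The 8 genes plotted by group, the untested genes with values and the levels from the further list were picked after their values were seen. Promoters were read with Python 3.11.15.

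The replicate numbers 1 to 3 recur in all groups. Deviations of same-numbered samples correlated by 0.02 to 0.09 at 24 h and 0.05 to 0.12 at 108 h. These correlations were low, but numbers 1 and 2 at 24 h and all 3 at 108 h correlated best with their own number. A pairing by number is thus not excluded. The main fit did not take the numbers as pairs, and a block on the number was an alternative. Correlations between arrays were 0.604 to 0.783 within groups and 0.552 to 0.781 between them. There were 13 alternatives, covering scaling, codes, dim values, filters, moderation, array weights, a replicate block, averaging to genes and the arrays fitted, and each array was left out in turn.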

Additional observations from a re-analysis of the deposited data

How the results depend on the processing

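No named gene passed the threshold in any comparison under the alternatives tried, and the lowest adjusted p of a named gene was 0.185. Of 1417 values of named differences under an alternative, 1372 kept their sign and 45 did not. Many of them could hardly turn. Leaving out an array of a group not compared, or changing only the moderation or the filter, left a difference nearly or exactly as it was. Of 148 list medians 142 moved by less than the spread between replicates, 0.65, and 6 moved further. That spread is larger than each median itself (0.05 to 0.56), so a median could turn its sign within it. Of 60 named differences, 47 moved by over 1.5 times or turned when some array was left out, 44 without centring and 42 with both codes kept. The cause was not tested for the values below.

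With zeros kept as values, 1 probe of the table was called at 24 h, 1 at 108 h and 1 over both times. With zeros and the top code kept, 26 were called at 24 h, 23 for the change of the prominin difference, 11 with time in controls, 16 with time in prominin cultures and 25 over both times. With small whole-number ratios missing there were 3 with time in controls, 10 with time in prominin cultures and 1 over both times. With only probes measured on all arrays there were 2 and 21 with time in controls and in prominin cultures. Averaged to genes, 1 was called at 24 h and 1 with time in prominin cultures, where fitting only the groups compared gave 0 and no centring gave 7.

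Without centring the median of the 18 probes was 0.73 at 24 h, −0.90 at 108 h, −1.63 for their difference (−1.27 with both codes kept), 1.24 with time in controls and −0.60 with time in prominin cultures, where that of all tested probes was 0.58, −1.07, −1.69, 0.61 and −1.06. The median level of the 18 was −0.85 without centring, −0.83 with quantile normalization and, over all 35 probes, −0.05225 with both codes kept.

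Signs turned without centring for Usp18 (0.10 at 24 h, −0.28 at 108 h, −0.38 for the change, 0.33 and −0.045 with time in controls and prominin cultures), Psmb8 NM_010724 (0.025 at 24 h), Ccl2 (−0.35 at 108 h, −0.28 with time in prominin cultures), B2m (−0.10 at 108 h, −0.79 for the change) and Ifit3 (−0.59 at 108 h). They turned with zeros kept for B2m (−1.58 at 108 h, −1.92 for the change, −0.62 over both times), Usp18 (0.21 with time in controls) and Mx1 (1.10 with time in prominin cultures). With both codes kept they turned for Irf2 (3.79 at 24 h, −4.13 for the change, 1.73 over both times), Cxcl10 (4.35, −3.89 and 2.41), B2m (−2.02 at 108 h, −2.71 for the change, −0.66 over both times), Usp18 (0.10 at 24 h, 0.34 with time in controls), Psmb8 NM_010724 (0.025 at 24 h), Ifit3 (−0.038 at 108 h) and Mx1 (0.45 with time in prominin cultures). Averaged to genes, Psmb8 was at 0.0068 at 24 h.

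Leaving out each array in turn moved the median of the 18 from −0.39 to 0.42 at 24 h, −0.04 to 0.65 at 108 h, −0.30 to 0.51 for the change, 0.19 to 0.57 with time in controls, −0.08 to 0.87 with time in prominin cultures and −0.24 to 0.21 over both times. It gave 0 to 2 called probes at 24 h (2 without the second 24 h control), 0 to 1 for the change, 0 to 1 with time in controls (1 without the same array in both) and 0 to 2 with time in prominin cultures (0 without prominin replicate 2 at 24 h or 1 or 3 at 108 h, 1 without replicate 3 at 24 h or 2 at 108 h). Differences whose sign turned ran from −1.12 to 0.013 for Psmb8 NM_010724 at 24 h. At 108 h they ran from −0.13 to 1.19 for Ifit3, −0.85 to 0.45 for Ifi35 and −1.46 to 0.60 for Psmb8 NM_010724. For the change they ran from −2.60 to 0.47 for Igtp and −0.65 to 0.0855 for H2-D1. With time in prominin cultures they ran from −1.05 to 0.27 for Ifit3, −2.01 to 0.53 for Mx1 and −0.77 to 0.012 for Psmb9, and over both times from −2.43 to 0.14 for Cxcl10.

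With the replicate number as a block, 0 probes were called at 24 h, 0 at 108 h, 0 for the change, 0 with time in controls, 2 with time in prominin cultures and 0 over both times, and the median of the 18 was 0.05, 0.18, 0.10, 0.56, 0.47 and 0.13. Mx1 turned to 0.24 with time in prominin cultures under this block. At 24 h numbers 1 and 2 correlated best with their own number and number 3 with number 2, and at 108 h all 3 did with their own.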
